A study of Homo sapiens with 14 samples.

Results

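RNA polymerase II, the enzyme that transcribes the protein-coding genes of the nucleus, and the factors that start it, pause it and carry it along a gene were followed here through 37 genes among the 62699 genes of the deposited count table. The genes were chosen by symbol, and each symbol was found exactly once. They fall into 5 core subunits, 2 stalk subunits, 5 subunits shared with RNA polymerases I and III, 5 kinase and cyclin genes, 5 genes of the elongation factors DSIF, SPT6 and FACT, 4 of the pausing factor NELF, 5 of the PAF1 complex, 2 initiation factors and 4 subunits of Mediator.

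RNA polymerase II assembles at a promoter with TBP, which binds the promoter DNA, with TFIIB and with Mediator, the large complex that links gene-specific activators to the polymerase. The TFIIH kinase CDK7 phosphorylates the repeated tail of the largest subunit, and the polymerase then pauses a short way into the gene, held by NELF together with DSIF. Release into elongation requires P-TEFb, which is CDK9 with a cyclin T, after which the PAF1 complex, SPT6 and the histone chaperone FACT travel with the polymerase through chromatin. These genes are expressed in every nucleated cell type.

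In each of 4 human cancer cell lines, 2 libraries of cells given an ADAR siRNA, numbered 1 and 2, stood against 1 library of cells given a control siRNA. The lines came from triple-negative breast cancer (MDA-MB-231, BT-549), lung adenocarcinoma (NCI-H1395) and gastric adenocarcinoma (AGS). ADAR encodes ADAR1, an enzyme that converts adenosine to inosine within double-stranded RNA, and the study asked how it and NOP14 affect transcriptional output. In MDA-MB-231 there was also 1 library of cells overexpressing NOP14, a nucleolar factor of ribosome assembly, beside 1 library of a control that the labels call PCDH. The siRNA sequences, the meaning of the numbers 1 and 2, the promoter that drove NOP14 and whether cultures were separate are not given in the sources used here. The p-values therefore reflect nothing but the variation among these samples. All libraries were bulk poly(A) RNA, in which fewer cells holding a transcript and less of it per cell cannot be told apart, and every value is a share of its library and not an amount per cell.

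Total counts ranged from 13338338 to 27828376 over the 14 libraries. On the CPM scale (counts over library size, with TMM factors), ADAR kept 32.3% and 33.8% of its control level with ADAR siRNA in MDA-MB-231 and 10.6% to 24.0% in the other 3 lines, and NOP14 had 852 CPM with overexpression and 129 CPM with PCDH. Of the defining markers, the lung genes NKX2-1, SFTPB and NAPSA were at most 0.11 CPM in the NCI-H1395 control library, where CDH1 had 0 counts and VIM 2380 CPM. The stomach genes GKN1 and TFF2 had 0 counts in the AGS control library, which had 394 CPM of EPCAM and 81.1 CPM of the gut factor CDX2. The receptors ESR1 and PGR were at most 0.21 CPM in the control siRNA libraries of both breast lines. The receptor gene ERBB2 was not near 0, with 64.3 CPM in the MDA-MB-231 control siRNA library and 58.2 to 176 CPM over the 14 libraries. The T cell gene CD3E had 0 counts throughout.

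Of the 37 genes, 35 had 169 to 18935 counts in every library, and 2 were hardly counted. SUPT4H1, the small subunit of DSIF, had 0 to 8 counts per library, and other annotated genes overlap 89.9% of its exon bases, among them ENSG00000285897 on the same strand and TSPOAP1-AS1 on the other. NELFCD, a NELF subunit, had 0 to 23 counts, while CTSZ, which covers 97.4% of its exon bases from the other strand, had 520 to 9529. No source used here says whether counting used the strand, so reads of overlapping genes may have been shared, split or discarded, and the values of SUPT4H1 and NELFCD are uncertain. The same limit touches POLR2I, with 77.2% of its exon bases overlapped by TBCB, OVOL3 and ENSG00000279504 and yet 181 to 558 counts per library, and POLR2L, with 22.8% overlapped by CD151. POLR2J has near-identical copies (POLR2J2, POLR2J3 and POLR2J4), whose counts summed to 77 to 223 per library, against 376 to 2490 counts for POLR2J itself.

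With control siRNA the 35 counted genes spanned a wide range of levels per transcript length, and subunits that stand in equal number in the enzyme did not have equal transcript levels. In TPM, which divides the counts by exon length, the median of the 35 was 55.4 in MDA-MB-231, 65.7 in BT-549 cells, 90.5 in NCI-H1395 and 55.9 in AGS. POLR2L, a small shared subunit, was highest in BT-549, NCI-H1395 and AGS among the subunits counted per length, with 484, 565 and 188 TPM, and had 324 TPM in MDA-MB-231. POLR2A, which carries the catalytic site and the repeated tail, had 128 TPM in MDA-MB-231, 99.7 in BT-549 cells, 122 in NCI-H1395 and 129 in AGS. POLR2B, the second largest subunit, lay close to it with 92.6, 118, 95.1 and 128 TPM in the same order of lines. POLR2F, another shared subunit, had only 15.7, 27.4, 22.7 and 12.02 TPM. The exon length used for TPM joins all annotated exons of a gene, which lowers the TPM of genes with long alternative transcripts; POLR2F has 7008 such bases and POLR2L 1126.

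**Figure D1:**
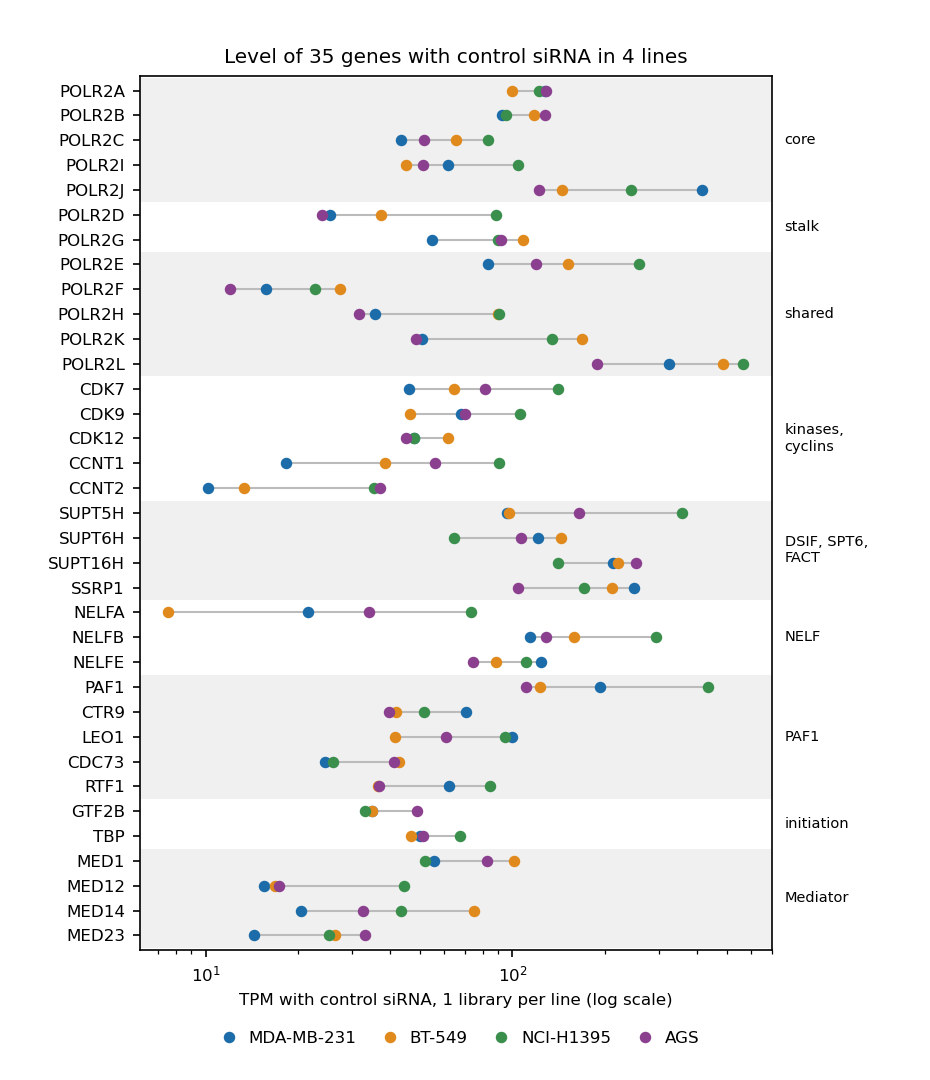
Level of the 35 counted genes in the control siRNA library of each line, in TPM on a log axis, grouped by role; each point is 1 library and the grey line joins the lowest and highest line. NELFA runs from 7.56 TPM in BT-549 to 73.3 TPM in NCI-H1395, while POLR2A stays between 99.7 and 129 TPM.

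The control level differed between the lines for 23 of the 36 members that could be tested (edgeR quasi-likelihood F test, adjusted p under 0.05), where 50.5% of all 23959 genes tested were called, and 66.7% of those averaging at least 4 on the log2 CPM scale. The members therefore differed between lines about as often as other genes of their abundance. Not called were POLR2A, POLR2B, POLR2C, POLR2I, POLR2G, CDK7, CDK9, CDK12, CDC73, GTF2B, TBP and MED23, with NELFCD. TBP had the largest p of the named genes, with 39.8 CPM in MDA-MB-231, 31.1 in BT-549 cells, 36.5 in NCI-H1395 and 30.1 in AGS (adjusted p = 0.675). By pairs of lines, 9 members were called for MDA-MB-231 minus BT-549 (25.8% of all genes), 13 for MDA-MB-231 minus NCI-H1395 (23.3%) and 10 for MDA-MB-231 minus AGS (29.7%). For BT-549 minus NCI-H1395 there were 11 (19.8%), for BT-549 minus AGS 8 (28.3%) and for NCI-H1395 minus AGS 12 (26.7%). The shares for pairs are over all genes. Shares among genes of the members' abundance were not computed for pairs. Whether the 36 members tested were called more often than such genes is therefore not known for pairs. Each level rests on 1 control library, whose spread is taken from the ADAR siRNA pairs. MDA-MB-231 also had a PCDH control, which was not used in these tests. Between its 2 controls 12 of 37 members differed by more than 1.5-fold, where 39.7% of 12521 genes did. Pairs with MDA-MB-231 can therefore depend on which control stands for the line.

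Among the core and stalk subunits, POLR2J and POLR2D differed. POLR2J, which pairs with POLR2C in the assembly platform, had 133 CPM in MDA-MB-231, 38.9 in BT-549 cells, 53.2 in NCI-H1395 and 29.1 in AGS. MDA-MB-231 exceeded each of the others, by a log2 difference of 1.33 ± 0.36 (SE) over NCI-H1395 (edgeR adjusted p = 0.00908) to 2.19 ± 0.37 over AGS (8.44e-05). These differences rest on its control siRNA library. The PCDH control library of MDA-MB-231 had 17.8 CPM of POLR2J, below the control siRNA level of each other line. POLR2D, a stalk subunit, had 45.5 CPM in MDA-MB-231, 55.7 in BT-549 cells, 107 in NCI-H1395 and 31.9 in AGS. Its level in NCI-H1395 was above each of the other 3 lines.

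All 5 shared subunits differed, and AGS had the lowest CPM of 4 of them. POLR2L had 125 CPM in MDA-MB-231, 156 in BT-549 cells, 148 in NCI-H1395 and 53.8 in AGS, and AGS was below each of the other 3 lines. POLR2K had 29.1, 80.8, 52.5 and 20.7 CPM in the same order of lines, and POLR2H had 38.8, 81.2, 66.4 and 25.4 CPM. For both genes, BT-549 exceeded MDA-MB-231 and AGS, and NCI-H1395 exceeded AGS (edgeR, adjusted p under 0.05). With PCDH, MDA-MB-231 had 68.6 CPM of POLR2K and 69.25 of POLR2H, nearer to BT-549. POLR2F had 37.9 CPM in MDA-MB-231, 54.9 in BT-549 cells, 36.99 in NCI-H1395 and 21.4 in AGS, and BT-549 minus AGS was the only pair called. POLR2E had 139, 212, 293 and 148 CPM, with NCI-H1395 above MDA-MB-231 and AGS.

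Of the kinases and cyclins, the 2 cyclins of P-TEFb differed by the F test and none of the kinases did. CCNT1 had 46.3 CPM in MDA-MB-231, 80.9 in BT-549 cells, 155 in NCI-H1395 and 105 in AGS. CCNT2 had 31.8, 34.4, 74.7 and 85.7 CPM in the same order. Both breast lines were thus below NCI-H1395 for each cyclin, and below AGS for CCNT2; BT-549 and AGS were not told apart for CCNT1. The kinase partner CDK9 had 70.3, 39.9, 74.1 and 53.7 CPM (F test adjusted p = 0.0931).

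The elongation factors split between lines. SUPT5H, the large subunit of DSIF, had 284 CPM in MDA-MB-231, 238 in BT-549 cells, 709 in NCI-H1395 and 359 in AGS, so that NCI-H1395 was highest. SUPT6H, which encodes the histone chaperone SPT6, had 437, 432, 158 and 286 CPM, and NCI-H1395 was below both breast lines (MDA-MB-231 minus NCI-H1395 1.47 ± 0.33 on the log2 scale, edgeR adjusted p = 0.00217). For the FACT genes, SUPT16H had 503, 436, 226 and 443 CPM and was lowest in NCI-H1395. SSRP1 had 542, 383, 252 and 168 CPM and was lower in AGS than in both breast lines, while AGS and NCI-H1395 were not told apart.

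NELFA, whose product contacts the polymerase, had the widest range, with 37.6 CPM in MDA-MB-231, 10.9 in BT-549 cells, 86.2 in NCI-H1395 and 43.7 in AGS. BT-549 minus NCI-H1395 was -2.98 ± 0.38 on the log2 scale (edgeR adjusted p = 4.62e-06), and 5 of its 6 pairs of lines were called. NELFB had 99.2, 115, 174 and 83.5 CPM, with NCI-H1395 above AGS, and NELFE, the RNA-binding subunit, had 113, 66.7, 68.2 and 49.9 CPM, with MDA-MB-231 above AGS. For NELFB and NELFE no pair of lines with BT-549 was called.

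Within the PAF1 complex, PAF1 had 189 CPM in MDA-MB-231, 99.8 in BT-549 cells, 289 in NCI-H1395 and 80.1 in AGS. CTR9, its scaffold subunit, had 140, 68.7, 69.1 and 58.3 CPM, and MDA-MB-231 was above each of the other 3. LEO1 had 90.6, 31.4, 58.4 and 41.1 CPM, and RTF1, which links the complex to histone modification, had 124, 60.1, 114 and 54.0 CPM. MDA-MB-231 exceeded BT-549 and AGS for all 4 of these genes. With PCDH, MDA-MB-231 had 126 CPM of PAF1, 116 of CTR9, 48.0 of LEO1 and 99.9 of RTF1. Of the Mediator genes, MED14, the backbone, had 68.1 CPM in MDA-MB-231, 207 in BT-549 cells, 97.6 in NCI-H1395 and 80 in AGS. BT-549 was above each of the others, but MDA-MB-231 had 184 CPM of MED14 with PCDH, close to BT-549. MED1, the contact for nuclear receptors, had 164, 248, 104 and 180 CPM, with BT-549 above NCI-H1395. MED12, of the kinase module, had 92.4, 83.02, 179 and 76.5 CPM and was highest in NCI-H1395.

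With ADAR siRNA, edgeR's test over the 4 lines called none of the 37 genes and DESeq2 called 3, and most fitted values lay a little below 0. edgeR left 6 members at an unadjusted p under 0.05, 5 of the 35 counted genes and the hardly counted SUPT4H1. Of all 21944 genes, 4 (0.0182%) were called and 2523 had an unadjusted p under 0.05. Among the 13574 genes averaging at least 1 in log2 CPM, 2103 had such a p. The 3 members that DESeq2 called were POLR2I, SSRP1 and TBP, all lower, where it called 5.98% of 11308 genes. The edgeR log2 fold changes of the 35 counted genes ran from -0.37 to 0.22, with a median of -0.13, 27 below 0 and 8 above. Counting the hardly counted genes, 28 of 37 lay below 0, where 42.7% of all genes and 48.0% of the 13574 genes averaging at least 1 in log2 CPM did so; the medians of those 2 sets were 0.06 and 0.01. The 95% intervals of the 35 lay between -0.69 and 0.48.

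**Figure D2:**
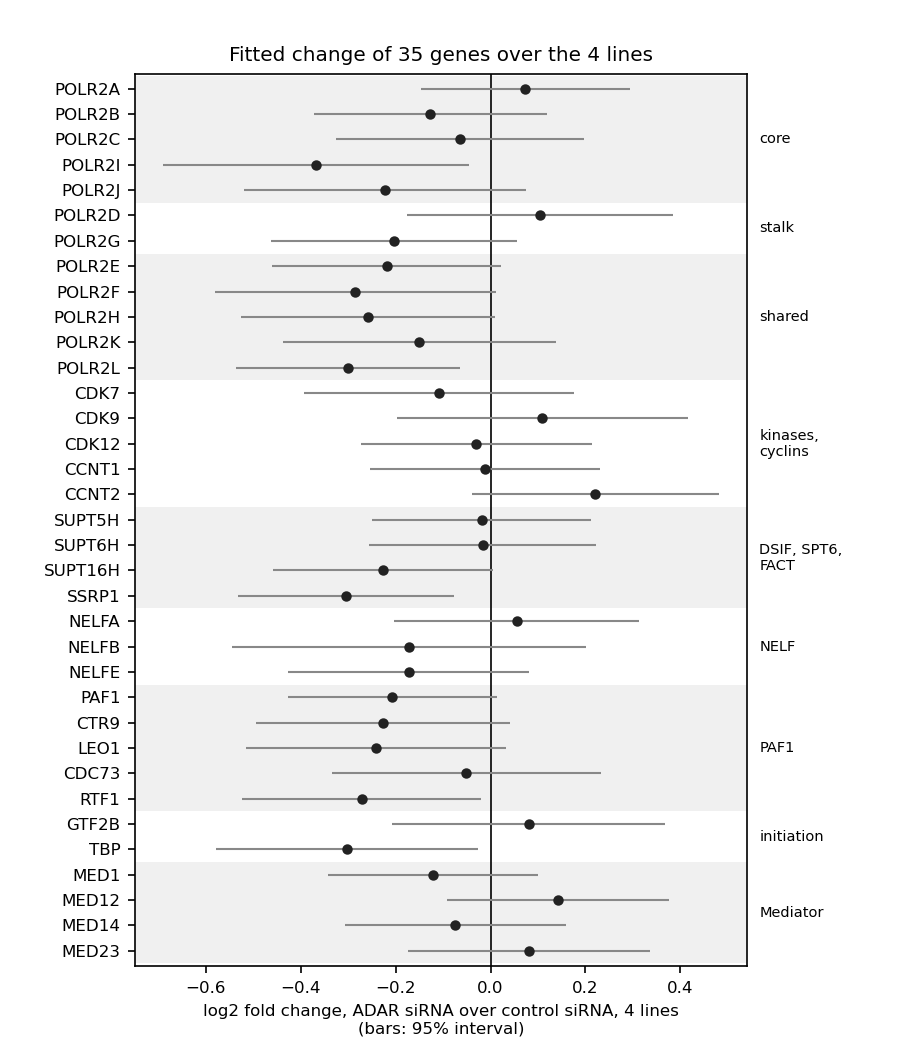
Fitted log2 fold change of ADAR siRNA over control siRNA across the 4 lines for the 35 counted genes, with 95% intervals from the edgeR fit. All 5 shared subunits and all 5 PAF1 complex genes lie left of 0, and no gene passed an edgeR adjusted p of 0.05.

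A total of 6 members were lower than their control in all 8 ADAR siRNA libraries and none was higher in all 8. These were POLR2I, POLR2G, SSRP1, PAF1, TBP and MED1. Over all 21944 genes tested 3.27% were lower and 1.98% higher in all 8, and over the 13574 more abundant genes the shares were 4.74% and 2.24%. The 2 libraries of a line share a control, so these are not 8 independent directions. With library totals in place of TMM factors 3 of the 6 (POLR2G, SSRP1 and TBP) remained lower in all 8, and with median-ratio scaling 4 did (all but SSRP1 and MED1).

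Promoters of 4 of these 6 were found in the RefSeq table (GRCh38.p14), which held 31 of the 37 members, and they are shown because these genes stayed on 1 side of their control. Each line gives the 250 bases before the annotated start, read 5′ to 3′ on the strand of the gene, with matches of 4 short motifs in capitals.
MED1 (minus strand, chr17:39451264-39451513): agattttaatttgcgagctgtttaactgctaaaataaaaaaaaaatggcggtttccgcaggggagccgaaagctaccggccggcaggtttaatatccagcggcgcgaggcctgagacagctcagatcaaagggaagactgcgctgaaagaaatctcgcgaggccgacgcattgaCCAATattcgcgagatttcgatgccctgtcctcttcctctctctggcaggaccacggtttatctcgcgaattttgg
PAF1 (minus strand, chr19:39391107-39391356): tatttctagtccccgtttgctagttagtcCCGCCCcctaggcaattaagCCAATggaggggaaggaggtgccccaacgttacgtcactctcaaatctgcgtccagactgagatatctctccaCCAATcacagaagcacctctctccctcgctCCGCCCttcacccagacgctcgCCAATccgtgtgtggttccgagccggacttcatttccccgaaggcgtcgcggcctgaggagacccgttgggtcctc
SSRP1 (minus strand, chr11:57335893-57336142): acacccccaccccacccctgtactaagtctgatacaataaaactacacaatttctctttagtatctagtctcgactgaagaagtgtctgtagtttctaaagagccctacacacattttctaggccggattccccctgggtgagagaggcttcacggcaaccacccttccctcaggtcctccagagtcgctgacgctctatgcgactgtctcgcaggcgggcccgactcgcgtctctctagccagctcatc
TBP (plus strand, chr6:170554119-170554368): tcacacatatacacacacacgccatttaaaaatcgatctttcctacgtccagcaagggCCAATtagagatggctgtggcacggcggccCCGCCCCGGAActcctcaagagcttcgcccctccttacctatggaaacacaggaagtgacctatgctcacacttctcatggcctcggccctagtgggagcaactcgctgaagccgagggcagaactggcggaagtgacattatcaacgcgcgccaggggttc

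The motifs were the TATA box (TATAAA), the CCAAT box (CCAAT), the GC box (GGGCGG) and an ETS core (CCGGAA), each searched on both strands, and in the TBP promoter a GC box and the ETS core overlap. No TATA box match stood in these 4 windows, 3 of them held a CCAAT box, and the SSRP1 window held none of the 4 motifs. Of all 27305 promoters 11.1% held a TATA box, 33.0% a CCAAT box, 42.3% a GC box and 14.8% an ETS core. Of the 31 member promoters these shares were 3.2%, 16.1%, 74.2% and 48.4%. A match is a string of letters and not a site shown to be bound.

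**Figure D3:**
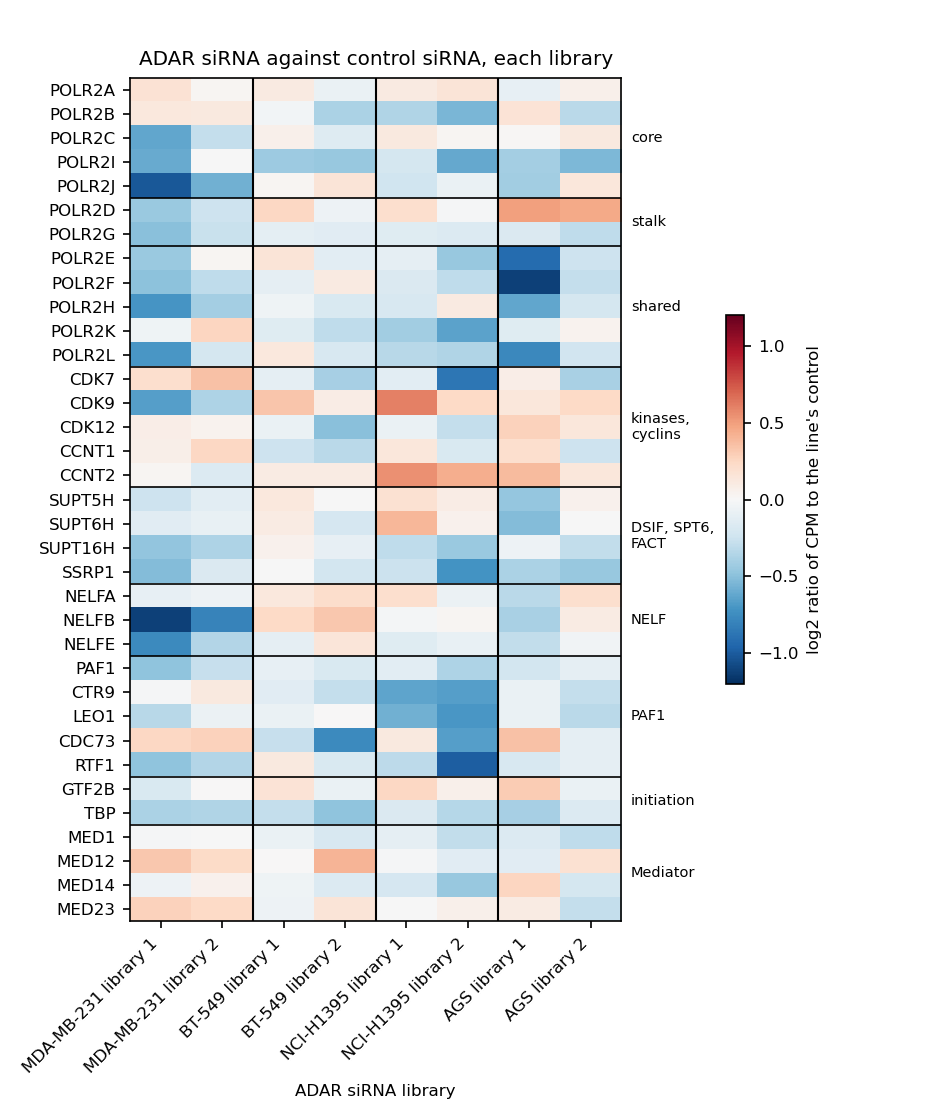
log2 ratio of CPM in each ADAR siRNA library to the control siRNA library of its line, for the 35 counted genes grouped by role; blue is lower and red higher with ADAR siRNA. The darkest blue cells are NELFB in library 1 of MDA-MB-231 and POLR2F in library 1 of AGS, both at -1.12.

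Of the 5 core subunits, 4 lay below 0 over the lines with a median of -0.13. edgeR called none of them and DESeq2 called POLR2I. POLR2I, a subunit that aids accurate transcription, had 15.8 and 24.0 CPM with ADAR siRNA against 24.2 with control siRNA in MDA-MB-231, 10.8 and 10.7 against 14.6 in BT-549, 23.7 and 17.9 against 27.5 in NCI-H1395, and 11.1 and 10.1 against 14.8 in AGS. Every ADAR siRNA library was below its control, library 2 of MDA-MB-231 by next to nothing. Over the lines it stood at -0.37 ± 0.15 (edgeR adjusted p = 0.359; DESeq2 gave -0.40 and 0.0278). POLR2A was close to its control, at 0.07 ± 0.10, and was higher in 6 of 8 libraries. POLR2B and POLR2C stood at -0.13 ± 0.12 and -0.07 ± 0.12 (adjusted p = 0.732 and 0.898), and POLR2J at -0.22 ± 0.14 (0.580).

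The stalk subunits had fitted values of opposite sign, and neither was called. POLR2G had 25.2 and 29.7 CPM with ADAR siRNA against 35.8 with control siRNA in MDA-MB-231, 54.0 and 53.4 against 58.6 in BT-549, 35.9 and 35.4 against 39.8 in NCI-H1395, and 39.5 and 36.0 against 44.5 in AGS. The shortfall was small and of 1 sign throughout, and the fit gave -0.20 ± 0.12 (edgeR adjusted p = 0.557). POLR2D stood at 0.10 ± 0.13 (0.827), below its control in both MDA-MB-231 libraries and above it in both AGS libraries.

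All 5 shared subunits lay below 0, with a median of -0.26, and none was called. POLR2L had 77.0 and 109 CPM with ADAR siRNA against 125 with control siRNA in MDA-MB-231, 170 and 136 against 156 in BT-549, 117 and 116 against 148 in NCI-H1395, and 31.3 and 45.9 against 53.8 in AGS. It was lower in 7 of 8 libraries, BT-549 library 1 being the exception, at -0.30 ± 0.11 over the lines (edgeR adjusted p = 0.308). POLR2F and POLR2H stood at -0.29 ± 0.14 and -0.26 ± 0.13 (0.452 each), POLR2E at -0.22 ± 0.11 (0.486) and POLR2K at -0.15 ± 0.14 (0.730). Library 1 of AGS stood apart for these genes, with log2 ratios of -1.12 for POLR2F, -0.92 for POLR2E, -0.78 for POLR2L and -0.62 for POLR2H, while library 2 of AGS had -0.21 to -0.29 for the same 4. Without that library edgeR still called 0 of the 37 members over the lines, and 26 in place of 28 lay below 0.

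The kinases and cyclins had a median of -0.01, with 3 of 5 below 0 and none called. CCNT2, a cyclin of P-TEFb, had 32.3 and 28.4 CPM with ADAR siRNA against 31.8 with control siRNA in MDA-MB-231, 36.96 and 36.8 against 34.4 in BT-549, 109 and 101 against 74.7 in NCI-H1395, and 111 and 94.4 against 85.7 in AGS. It was higher in 7 of 8 libraries, and alone among the 35 counted genes in being higher in 7 or more. Its fitted value of 0.22 ± 0.12 did not pass the test (edgeR adjusted p = 0.522). CCNT1 stood at -0.01 ± 0.11, CDK7 at -0.11 ± 0.13, CDK12, an elongation kinase, at -0.03 ± 0.11, and CDK9 at 0.11 ± 0.14. CDK9 was below its control in both MDA-MB-231 libraries and above it in the 6 libraries of the other lines.

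In the DSIF, SPT6 and FACT group both FACT genes had values below 0 and SUPT5H and SUPT6H lay near 0. edgeR called none of the group and DESeq2 called SSRP1. SSRP1 had 378 and 482 CPM with ADAR siRNA against 542 with control siRNA in MDA-MB-231, 382 and 329 against 383 in BT-549, 211 and 153 against 252 in NCI-H1395, and 129 and 122 against 168 in AGS. All 8 libraries were below their control, BT-549 library 1 at a log2 ratio of only -0.004. Over the lines it stood at -0.31 ± 0.11 (edgeR adjusted p = 0.281, the smallest of the 35; DESeq2 gave -0.34 and 0.0157). SUPT16H, its partner in FACT, stood at -0.23 ± 0.11 (0.446) and was lower in 7 of 8. Genes of DNA replication and of dividing cells had values of the same sign. All 12 genes of each list lay below 0, with medians of -0.49 and -0.52. None of these genes passed edgeR's adjusted threshold (11 and 12 at an unadjusted p under 0.05), and DESeq2 called 6 of the replication and 9 of the dividing-cell genes, all lower. Summed over the 12 replication genes, levels were 1594 and 1902 CPM with ADAR siRNA against 2674 with control siRNA in MDA-MB-231, 3339 and 2854 against 3261 in BT-549, 1916 and 1395 against 2886 in NCI-H1395, and 1121 and 1177 against 1725 in AGS. Their part in the values of SSRP1 and SUPT16H was not tested. SUPT5H and SUPT6H both stood at -0.02 ± 0.11, and SUPT4H1, with at most 8 counts in a library, at 2.16 ± 0.93 (0.384).

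NELF had 3 of its 4 genes below 0 and none called. NELFE had 66.2 and 88.4 CPM with ADAR siRNA against 113 with control siRNA in MDA-MB-231, 61.7 and 73.9 against 66.7 in BT-549, 61.8 and 64.2 against 68.2 in NCI-H1395, and 40.7 and 48.6 against 49.9 in AGS. It was lower in 7 of 8 libraries, at -0.17 ± 0.12 (edgeR adjusted p = 0.627). NELFB had 45.5 and 56.8 CPM against 99.2 in MDA-MB-231, 136 and 144 against 115 in BT-549, 172 and 176 against 174 in NCI-H1395, and 63.7 and 89.3 against 83.5 in AGS. Its value over the lines, -0.17 ± 0.17 (0.769), turned to 0.08 without MDA-MB-231. NELFA stood at 0.06 ± 0.12 (0.912).

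All 5 genes of the PAF1 complex lay below 0, with a median of -0.23, and none was called. PAF1 had 135 and 156 CPM with ADAR siRNA against 189 with control siRNA in MDA-MB-231, 93.01 and 87.7 against 99.8 in BT-549, 265 and 223 against 289 in NCI-H1395, and 68.8 and 74.4 against 80.1 in AGS. All 8 libraries were below their control, with a fitted value of -0.21 ± 0.10 (edgeR adjusted p = 0.466). RTF1 had 88.5 and 97.0 CPM against 124 in MDA-MB-231, 65.4 and 52.8 against 60.1 in BT-549, 91.8 and 57.2 against 114 in NCI-H1395, and 47.4 and 50.1 against 54.0 in AGS, and stood at -0.27 ± 0.12 (0.389). CTR9 and LEO1 were each lower in 7 of 8 libraries, at -0.23 ± 0.13 and -0.24 ± 0.13 (0.522 and 0.502). CDC73, known as a tumor suppressor of the parathyroid, stood at -0.05 ± 0.13 and was higher in both MDA-MB-231 libraries.

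Of the initiation factors, TBP had 30.5 and 30.9 CPM with ADAR siRNA against 39.8 with control siRNA in MDA-MB-231, 25.4 and 22.2 against 31.1 in BT-549, 32.3 and 28.7 against 36.5 in NCI-H1395, and 22.8 and 26.9 against 30.1 in AGS. Every library was below its control, with log2 ratios of -0.48 to -0.16, and the fit over the lines gave -0.30 ± 0.13 (edgeR adjusted p = 0.383; DESeq2 gave -0.33 and 0.0159). GTF2B, which encodes TFIIB, stood at 0.08 ± 0.14 (0.883).

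The 4 Mediator genes had a median of 0.00, with 2 on each side of 0. MED1 had 162 and 163 CPM with ADAR siRNA against 164 with control siRNA in MDA-MB-231, 235 and 217 against 248 in BT-549, 96.6 and 85.0 against 104 in NCI-H1395, and 160 and 146 against 180 in AGS. Its 8 ratios were all below 0, but those of MDA-MB-231 were -0.02 and -0.01, and the fitted value was -0.12 ± 0.10 (edgeR adjusted p = 0.710). MED12 had 116 and 109 CPM against 92.4 in MDA-MB-231, 83.5 and 110 against 83.02 in BT-549, 177 and 163 against 179 in NCI-H1395, and 69.8 and 86.8 against 76.5 in AGS, and stood at 0.14 ± 0.11 (0.672). MED14 and MED23, a tail subunit, stood at -0.07 ± 0.11 and 0.08 ± 0.12.

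Wider lists of the same machinery gave no gene called by edgeR either, with 1, 3, 3, 1 and 3 genes of the 5 lists below at an unadjusted p under 0.05. Of all 21944 genes tested 2523 had such a p, and of the 13574 more abundant genes 2103. DESeq2 called GTF2A2 (-0.43, adjusted p = 0.00298), TAF8, another TFIID subunit (-0.30, 0.0115), and INTS10 (-0.32, 0.0305), all lower, where it called 5.98% of 11308 genes. In each list the 2 genes with the smallest p are named, whatever their sign. Of 29 other Mediator subunits 12 lay below 0 and 17 above (median 0.06), and the smallest p belonged to CDK19, a kinase of the Mediator module, at 0.27 ± 0.13 and MED30 at -0.35 ± 0.17. Of 29 other initiation factors tested 19 lay below 0 (median -0.01), and the smallest p belonged to GTF2A2, the small subunit of TFIIA, at -0.39 ± 0.12 and the TFIID subunit TAF6 at -0.31 ± 0.12, both lower in 8 of 8 libraries. Of 15 P-TEFb regulators and super elongation complex genes 10 lay above 0 (median 0.09), and the smallest p belonged to the scaffold AFF4 at 0.33 ± 0.11 and the elongation factor ELL2 at 0.35 ± 0.13. Of 22 other elongation factors and tail enzymes 13 lay below 0 (median -0.05), and the smallest p belonged to ELOB, an elongin subunit, at -0.32 ± 0.13 and the tail phosphatase RPAP2, which was above 0, at 0.27 ± 0.13. Of 21 Integrator and termination genes 14 lay below 0 (median -0.04). The smallest p belonged to SCAF8, which was above 0, at 0.34 ± 0.12 and the Integrator subunit INTS10 at -0.29 ± 0.11. The smallest of these adjusted p was 0.231 (edgeR, GTF2A2).

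Within single lines edgeR called 0 of the 36 members tested in each line, and DESeq2 called 0. In edgeR 0.0751% of 23959 genes were called in MDA-MB-231 and 0.00417% in each of the other lines; 6 member values had an unadjusted p under 0.05. The median over members was -0.19 in MDA-MB-231, where the median of genes averaging at least 1 in log2 CPM was -0.05. It ran from -0.29 to -0.07 there with 1 ADAR siRNA library left out, nearer 0 without library 1. The median over members was -0.03 in BT-549 (0.00 over the more abundant genes), -0.19 in NCI-H1395 (-0.01) and -0.14 in AGS (0.00). In MDA-MB-231 the smallest p was that of NELFB, at -0.96 ± 0.27 (unadjusted p = 0.00197, adjusted p = 0.342), followed by POLR2J at -0.78 ± 0.30 (adjusted p = 0.734). In NCI-H1395 the PAF1 complex had the lowest median of any role, -0.61, with all 5 genes below 0, and with CTR9 at -0.65 ± 0.26, LEO1 at -0.64 ± 0.28 and RTF1 at -0.61 ± 0.29 (edgeR adjusted p = 0.836, 0.876 and 0.931). By library, the median of these 5 genes was -0.31 in library 1, with 4 of 5 below 0, and -0.66 in library 2, with all 5 below 0. The lists of dividing cells and DNA replication had their lowest medians in NCI-H1395 too, at -0.87 and -0.80, and their part in the PAF1 complex values was not tested.

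The test of a different response between lines called 0 of 36 members (edgeR F test; 0.0292% of 23959 genes called), with NELFB and the hardly counted NELFCD at an unadjusted p under 0.05. Library 2 against library 1 likewise gave 0 of 36 by edgeR (0.0293% of 20470 genes) and 0 by DESeq2, with CDC73 at -0.43 ± 0.16 and CDK7 at -0.35 ± 0.17 the only members at an unadjusted p under 0.05 (edgeR adjusted p = 0.350 and 0.570).

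Several members that were lower in MDA-MB-231 or in library 1 of AGS had neighbours on the chromosome that were lower in the same libraries. The median of all genes averaging at least 1 in log2 CPM was -0.13 and -0.02 in the MDA-MB-231 libraries. In library 1 of AGS it was -0.01. NELFB (chromosome 9, 137255327 to 137273542, hg38) had log2 ratios of -1.12 and -0.80 in the MDA-MB-231 libraries, and the median of its 32 neighbours, up to 20 on each side, counting only genes of average log2 CPM 1 or more, was -0.90 and -0.63. CDK9 (chromosome 9, 127785679 to 127790792) had -0.66 and -0.37, and its 40 neighbours -0.72 and -0.51. POLR2J (chromosome 7, 102473128 to 102478922) had -1.01 and -0.58, beyond its neighbours at -0.46 and -0.31. In library 1 of AGS, POLR2E (chromosome 19, 1086574 to 1095380) had -0.92 where its neighbours had -0.66, and the neighbours of NELFB had -0.64. In library 2 of AGS the neighbours of POLR2E had -0.074 and those of NELFB 0.004.

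Over the 35 counted genes the ratio of a gene and the median of its neighbours had a Pearson correlation of 0.79 and 0.75 in the 2 MDA-MB-231 libraries and 0.58 in library 1 of AGS. It was -0.08 to 0.23 in the other 5 libraries. The points of a library share its depth and scaling and its control, and nearby members such as PAF1 and SUPT5H share neighbours, so the values are descriptions. The MDA-MB-231 libraries and library 1 of AGS thus differed from the others in how far these genes followed their surroundings, and what that contributes to the fitted changes was not tested. TBP was low in both MDA-MB-231 libraries (-0.38 and -0.36) where its 21 neighbours were high (0.17 and 0.26).

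**Figure D4:**
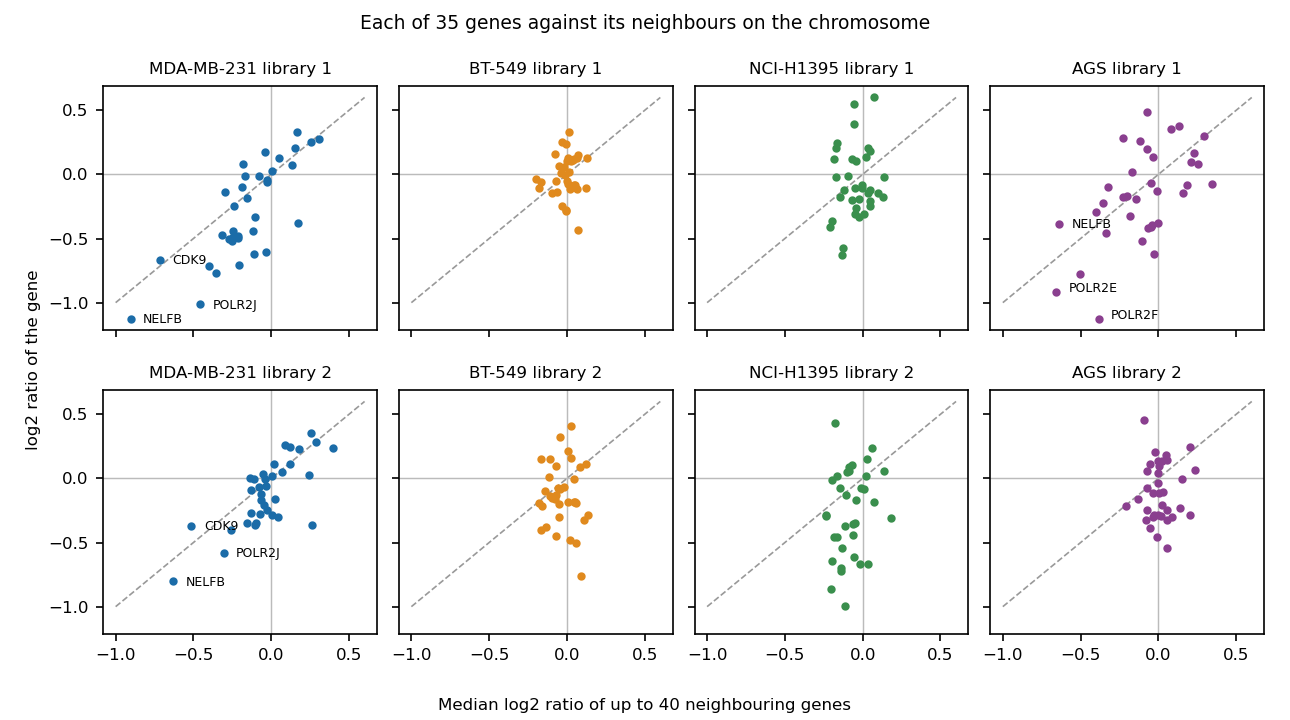
log2 ratio of ADAR siRNA to control siRNA for each of the 35 counted genes (vertical) against the median log2 ratio of its neighbours on the chromosome (horizontal), 1 panel per library; the dashed line marks equal values. Points spread along the dashed line in both MDA-MB-231 panels (Pearson r 0.79 and 0.75) and form a narrow vertical cloud in both BT-549 panels (0.07 and -0.08).

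NOP14 overexpression in MDA-MB-231 left the members close to the PCDH control. With 1 library per arm there is no test and the intervals cover counting error only. The 35 counted genes had log2 ratios from -0.13 to 0.17 (median 0.02), 22 above 0 and 13 below, and none of them passed 1.5-fold, where 0.711% of 12521 genes did. Of the hardly counted genes, SUPT4H1 had 1 count with NOP14 overexpression and 6 with PCDH and was the 1 of 37 members past 1.5-fold (log2 ratio -1.18, interval -7.92 to 0.65). NELFCD had 5 counts with NOP14 overexpression and 4 with PCDH. POLR2C had 86.0 CPM with NOP14 overexpression and 76.7 with PCDH, a log2 ratio of 0.17 (0.08 to 0.26), and POLR2F had 37.4 and 34.2 CPM, a ratio of 0.13 (-0.01 to 0.27). At the other end, MED14 had 169 CPM with NOP14 overexpression and 184 with PCDH, -0.13 (-0.19 to -0.06). The counting interval left out 0 for 8 of the 35 genes, the largest of these ratios being that of POLR2C. POLR2A itself had 227 and 220 CPM (0.04).

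The 2 control libraries of MDA-MB-231 differed from each other, in these genes no more often than in others. This comparison was chosen after its values were seen, has 1 library per arm, and sets apart libraries that differ in more than the control reagent. With control siRNA against PCDH, 12 of 37 members passed 1.5-fold, 5 higher and 7 lower, where 39.7% of 12521 genes passed (11.1% higher, 28.5% lower) and the median gene stood at -0.24. Among the 12 were the hardly counted SUPT4H1 and NELFCD, whose counting intervals (-4.46 to 1.36 and -0.21 to 3.79) include 0. POLR2J had 133 CPM with control siRNA and 17.8 with PCDH, 7.46-fold higher (log2 ratio 2.90, counting interval 2.76 to 3.05), and its neighbours had a median of 0.23. Summed with its copies, POLR2J stood at 2.58. POLR2I had 24.2 CPM with control siRNA and 9.42 with PCDH (1.35), and LEO1 90.6 and 48.0 (0.91). MED14 had 68.1 CPM with control siRNA and 184 with PCDH (-1.44), and POLR2K 29.1 and 68.6 (-1.24). Beside these gaps, the POLR2J level with ADAR siRNA, 65.9 and 89.0 CPM, lay between those of the 2 controls.

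**Figure D5:**
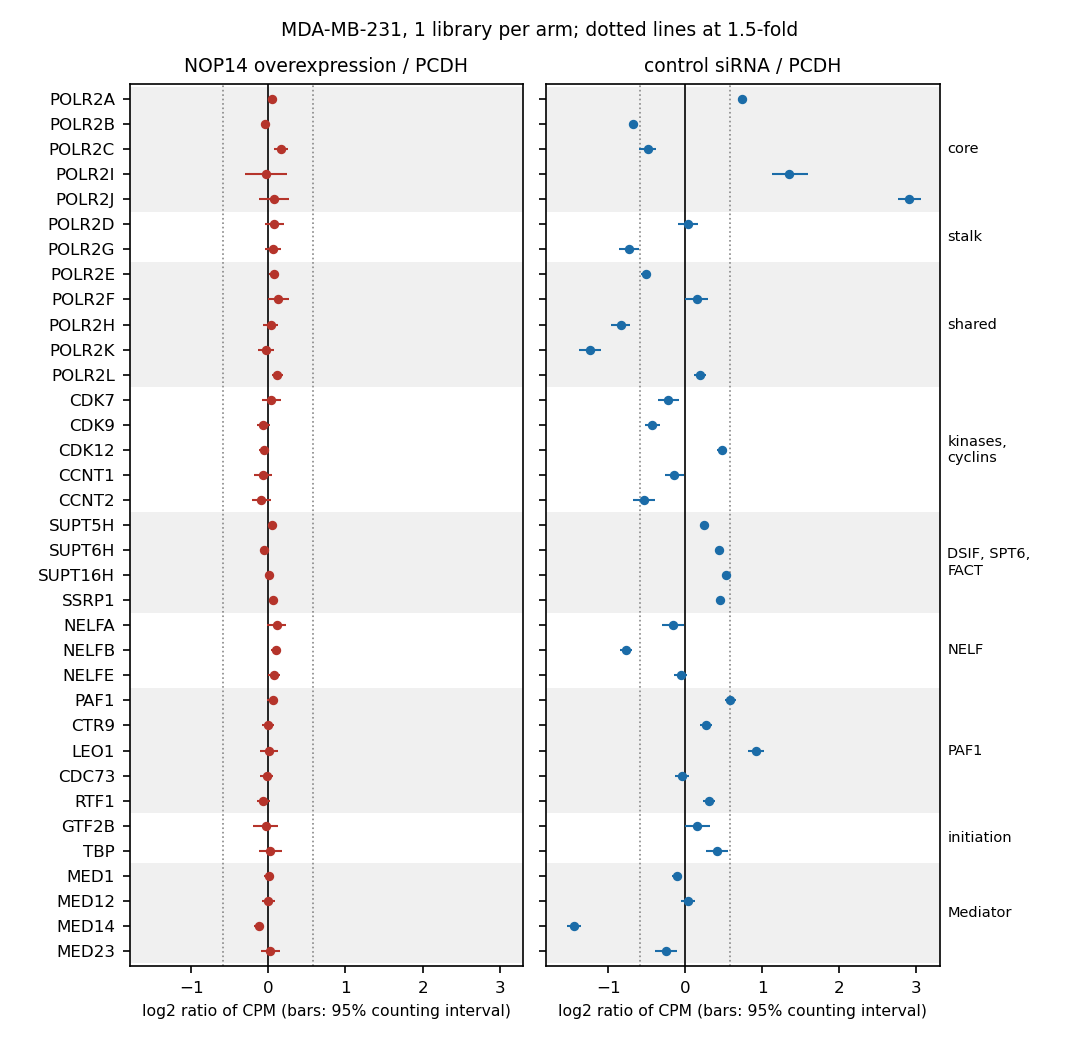
log2 ratio of CPM in MDA-MB-231 for the 35 counted genes, NOP14 overexpression over PCDH on the left and control siRNA over PCDH on the right; bars are 95% counting intervals and dotted lines mark 1.5-fold. The left points stay between -0.13 and 0.17, while on the right POLR2J reaches 2.90 and MED14 -1.44.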

How the data were processed

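The values used are integer counts per gene and library, deposited by the authors, with no normalization. The submitters' processing notes name fastp 0.23.4, STAR 2.7.11a, featureCounts 2.0.6 and the build hg38, with no strand setting or filter. All 14 columns matched a sample by name. Of 62702 lines, 3 broken lines of 1 gene (ANK2) were not used. Depth is given with the results; the number of samples, more than depth, limits precision.

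edgeR 4.0.16 under R 4.3.3 gave the tests (filterByExpr, TMM, robust quasi-likelihood, Benjamini-Hochberg over all genes, threshold 0.05); each ± is a standard error on the log2 scale. Over the lines, each line's ADAR siRNA libraries were added together and line and treatment fitted, with 3 residual degrees of freedom. Within lines and between control levels, 12 libraries in 8 groups were fitted with 4. Ratios per library used TMM-scaled CPM with a prior count of 2 and exact binomial 95% intervals, which cover counting error only. The fits were tested on simulated data. The changes set there were larger than any fitted over the lines for the counted genes. Recovery of changes that small was not tested. DESeq2 1.42.0, other scalings, filters, a replicate block and left-out lines or libraries were alternatives. Figures used Python 3.11.15.

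The members and lists were chosen with earlier results of these data known. Values in every library are given for members called in a comparison, for the smallest p over the lines in each role, for members on 1 side of the control in all 8 libraries, for NELFB, and for the 4 largest NOP14 ratios; 2 genes are named per wider list. Other genes were named after their values were seen.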

Additional observations from a re-analysis of the deposited data

How the results depend on the processing

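Over the 4 lines edgeR called 0 members under every setting run: median-ratio scaling, library totals, no filter, at least 10 counts in every library, unsummed libraries with and without the replicate block, number 1 or 2 alone, and each line or AGS library 1 left out. DESeq2 called 3: POLR2I at -0.398, SSRP1 at -0.337 and TBP at -0.334. Members below 0 numbered 23 with library totals, without a filter and without MDA-MB-231, and 24 to 28 otherwise. Over all genes the count of calls moved from 4 to 394 without a filter, 676 by DESeq2, 75 without MDA-MB-231, 14 with number 1 alone and 0 without BT-549 or NCI-H1395; unfiltered, the median gene moved from 0.06 to 0.22. NELFB ranged from -0.332 without BT-549 to 0.082 without MDA-MB-231, a reversal. Members lower in all 8 libraries fell to 3 with library totals. The median member in AGS was -0.055 with library totals and -0.173 without a filter. With 1 ADAR siRNA library left out, the median member ran from -0.145 to -0.013 in BT-549 and from -0.317 to -0.13 in NCI-H1395, lower without library 1 in both. Same-numbered libraries deviated together across lines by -0.089 to 0.462 (correlation over 12059 genes, 6 pairs of lines): 0.203 to 0.462 among BT-549, NCI-H1395 and AGS, and -0.089 to 0.047 with MDA-MB-231. Since not every pair exceeded 0.1, the numbers were not taken to pair samples over the 4 lines; the replicate block left 0 members called over and within lines. Summary values were recomputed under these settings. The tolerance was a 1.5-fold change for counts and, for medians, the standard deviation of the medians over lines or over a line's ADAR siRNA libraries. Many of these values were counts of called members that were 0 in the main fit, where agreement says little. Where an ADAR siRNA library was left out, the tolerance of its line's median came from the same libraries. Agreement says little there too. Of all these values, 178 stayed within their tolerance and 6 did not. The causes were not tested.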
